A study of Mus musculus with 9 samples.

Results

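The 71 mitochondrial ribosomal protein genes measured one by one in mouse anterior cingulate cortex were taken as those whose probe sets carried a single platform symbol beginning with Mrpl or Mrps and a digit, with pseudogenes dropped. They were 71 of 22180 genes tested, read from 80 probe sets, and for the 9 genes with several probe sets the one with the highest mean was used. A further 7 genes, Mrpl30, Mrpl33, Mrpl41, Mrpl43, Mrpl44, Mrpl53 and Mrps6, were named only on probe sets shared with another gene and were not analysed here. All mice were C57BL/6J, an inbred laboratory strain, and all tissue was taken at ZT13, where ZT0 is lights on, by microdissection between 1.34 and -0.5 mm from bregma. There were 3 groups of 3 arrays, each called a biological replicate in the labels. The saline group was given saline at ZT5 by the intraperitoneal route. The KT group received ketamine, a blocker of NMDA-type glutamate receptors with rapid antidepressant action, at 3 mg/kg intraperitoneally at ZT5, that is 8 h before collection. The SD group stayed awake through the light phase, ZT0 to ZT12, in a round cage with a slowly turning bar, and the labels name no injection for it, so wakefulness and the lack of an injection cannot be told apart against either other group. The labels give no age or sex, and tissue, not purified cells, was measured, so that fewer cells of a type and less RNA per cell cannot be told apart.

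Mitochondria translate their own small genome, which encodes core subunits of the respiratory chain, on ribosomes whose RNAs are made inside the organelle and whose proteins are all encoded in the nucleus. Each mitochondrial ribosome has a small subunit, which holds the messenger RNA and the decoding centre, and a large subunit, which joins amino acids and feeds the new chain to the inner membrane. Some of its proteins descend from bacterial ribosomal proteins, and others were added in the mitochondrial lineage. In neurons the products of this ribosome serve the energy supply of synapses. The 71 genes comprised 28 large-subunit genes with a bacterial homologue, 17 large-subunit genes specific to mitochondria, 15 small-subunit genes with a bacterial homologue, 10 small-subunit genes specific to mitochondria and Mrps36, whose product is a part of the 2-oxoglutarate dehydrogenase complex and not of the ribosome. The lists placed Mrps18a and Mrps18b, which are paralogs of the bacterial homologue Mrps18c, among the genes specific to mitochondria. By structure, Mrps30 and Mrps18a belong to the large subunit despite their names.

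The start regions of these genes are shown because nuclear genes for mitochondrial proteins are often described as sharing short promoter motifs. A link between the motifs and the values of these genes was not tested. RefSeq windows of 300 bases on GRCm38.p6, from 250 bases before to 50 after the gene start, matched 62 of the 71 genes. Those of Mrpl13, Mrpl15, Mrpl19, Mrpl38, Mrpl4, Mrpl54, Mrps28, Mrps34 and Mrps35 were not matched. The lines give the bases before the start, 5′ to 3′ on the strand of the gene, for the 3 genes with matched windows that had the smallest unadjusted p below saline in the KT group, for the gene with the smallest above saline in the SD group, and for Mrps11, which shares its start region with another member. Capitals mark the NRF1 half-site pair, which is GCGC, any 2 bases and GCGC again, the ETS motif CCGGAAG and the YY1 core AAGATGG on either strand. The Mrpl42 stretch lies at chr10:95501950-95502199, minus strand, that of Mrpl52 at chr14:54426659-54426908, plus strand, that of Mrps21 at chr3:95871515-95871764, minus strand and that of Mrpl28 at chr17:26123253-26123502, plus strand. The Mrps11 stretch, at chr7:78783090-78783130, plus strand, is the whole interval between the start of Mrps11 and the start of Mrpl46 on the other strand.
Mrpl42: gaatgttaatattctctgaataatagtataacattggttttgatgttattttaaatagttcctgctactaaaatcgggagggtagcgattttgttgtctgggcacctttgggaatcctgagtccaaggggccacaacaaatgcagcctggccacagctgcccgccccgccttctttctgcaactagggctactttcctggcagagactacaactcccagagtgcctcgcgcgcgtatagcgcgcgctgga
Mrpl52: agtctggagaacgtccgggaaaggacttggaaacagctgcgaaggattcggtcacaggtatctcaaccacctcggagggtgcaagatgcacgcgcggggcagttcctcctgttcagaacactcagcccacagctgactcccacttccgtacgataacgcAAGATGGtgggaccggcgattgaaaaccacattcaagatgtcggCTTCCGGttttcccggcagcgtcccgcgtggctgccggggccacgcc
Mrps21: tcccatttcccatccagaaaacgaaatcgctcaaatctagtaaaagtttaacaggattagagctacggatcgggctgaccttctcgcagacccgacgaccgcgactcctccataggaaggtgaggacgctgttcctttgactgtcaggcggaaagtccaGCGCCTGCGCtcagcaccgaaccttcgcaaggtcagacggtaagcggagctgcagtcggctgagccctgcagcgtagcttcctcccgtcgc
Mrpl28: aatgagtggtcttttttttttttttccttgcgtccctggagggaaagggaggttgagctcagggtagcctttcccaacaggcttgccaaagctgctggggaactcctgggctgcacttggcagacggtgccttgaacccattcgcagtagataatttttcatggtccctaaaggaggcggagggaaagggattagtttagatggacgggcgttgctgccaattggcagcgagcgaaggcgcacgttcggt
Mrps11: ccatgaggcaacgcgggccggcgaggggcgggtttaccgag

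Mrps21 carried 1 NRF1 half-site pair, and Mrpl52 carried 1 ETS motif and 1 YY1 core in the bases shown. Mrpl42, Mrpl28 and the interval between Mrps11 and Mrpl46 held none of these motifs in the bases shown. Across the whole set the windows of 12 of 62 genes (19.4%) held the NRF1 half-site pair on either strand, beside 1891 of the 27025 genes in the table. The NRF1 palindrome, with AT as the 2 middle bases, which the half-site search also finds, was in 3 (4.84%, beside 1.07%). CCGGAAG, the core bound by GABPA and other ETS factors, was in 23 (37.1%), beside 9.93%. AAGATGG was in 13 (21.0%), beside 7.28%, and its longer form, the core followed by CGGC, which the core search includes, in 5 (8.06%, beside 0.755%). The Sp1 box GGGCGG was in 32 (51.6%, beside 38.2%) and the TATA box TATAAA in 5 (8.06%, beside 15.7%). The table holds all genes, not those expressed in cortex alone, and a match describes the letters only.

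The genes were also often arranged head to head with a neighbour. For 23 of the 62 (37.1%) the start of a gene on the other strand lay upstream within 1000 bases, beside 12.2% of all genes in the table. Mrpl46 and Mrps11, a large-subunit and a small-subunit gene, start 42 bases apart on chromosome 7. Mrps12, whose protein lines the decoding centre, starts 147 bases from Sars2, the mitochondrial seryl-tRNA synthetase, on the same chromosome. Mrpl47 faces the complex I gene Ndufb5 at 308 bases, Mrpl49 the cytosolic ribosomal gene Fau at 192, Mrpl32 the proteasome gene Psma2 at 205 and Mrpl18 the chaperonin gene Tcp1 at 238. 
Medians over all probe sets lay between 97.7 and 106, but the upper quartile reached 254 in SD array 2 and was 221 in KT array 3, against 229 to 242 in the other 7. Neuron markers were at a like summed intensity throughout (11 of 11 measured), from 30546 to 31791 in saline, 30427 to 32422 in KT and 30223 to 31589 in SD arrays, with none at 0. Choroid plexus and ependymal markers (9 of 10 measured) summed to 2391, 9711 and 832 in saline arrays 1 to 3. They summed to 933 to 1256 in KT and 713 to 1241 in SD arrays. Their median difference was -0.048 in KT against saline (6 of 9 lower) and -0.17 in SD against saline (9 of 9 lower). The lowest single values were -2.24 and -2.76. In KT against SD the median was 0.18 (9 of 9 higher). Striatal neuron markers (6 of 9 measured) summed to 1551 to 1680 in saline, 1375 to 1752 in KT and 1509 to 1907 in SD arrays. Their median difference was -0.073 in KT against saline (6 of 6 lower) and 0.024 in SD against saline (5 of 6 higher). In KT against SD it was -0.12 (6 of 6 lower). By array the striatal medians were 0.014, -0.081 and -0.23 in KT arrays 1 to 3. They were 0.016, 0.23 and -0.0040 in SD arrays 1 to 3. Endothelial markers (10 of 10 measured) summed to 3475 to 3817 in saline, 3184 to 3703 in KT and 3884 to 4006 in SD arrays. Their median difference was -0.13 in KT against saline (9 of 10 lower), 0.11 in SD against saline (9 of 10 higher) and -0.25 in KT against SD (10 of 10 lower). In KT against SD 6 of the 10 had an unadjusted limma p under 0.05, all lower (60%, beside 4.38% of all genes). Groups did not overlap there for 4, all lower (40%, beside 5.54%). The counts at that p were 0 in KT against saline and 1, higher, in SD against saline, and none passed adjustment. By array their medians against the saline mean were 0.016, -0.18 and -0.24 in KT arrays 1 to 3, in the order of the ribosomal genes, and 0.050, 0.14 and 0.13 in SD arrays 1 to 3, all above 0, where those of the ribosomal genes, given next, lay on both sides of 0. Microglia markers (8 of 9 measured) summed to 2343 to 2570, 2338 to 2485 and 2501 to 2664 in saline, KT and SD arrays. Meningeal markers (8 of 8 measured) summed to 2939 to 3958, 2826 to 3215 and 2956 to 3352 in the same order, with a median difference of -0.16 in KT against saline (7 of 8 lower) and -0.080 in SD against saline (7 of 8 lower). No marker of any of these lists was at 0, and the part of cell composition in the results was not tested.

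Values of the mitochondrial ribosomal protein genes stood high or low together by array, and the 3 groups overlapped. Relative to each gene's saline mean on the log2(intensity + 16) scale, the median over the 71 genes was 0.060, -0.044 and -0.016 in saline arrays 1 to 3. It was 0.029, -0.14 and -0.20 in KT arrays 1 to 3, so 2 KT arrays lay below all saline arrays and KT array 1 lay inside their range. It was -0.12, 0.18 and -0.056 in SD arrays 1 to 3, which put the highest of the 9 arrays and a low one in the same group. SD array 2 gave the highest value of the 9 for 54 of the 71 genes, beside 26.2% of all genes. KT array 3 gave the lowest for 35, beside 24.7% of all genes. SD array 1 did so for 18, beside 16.3%, and KT array 2 for 12, beside 7.96%. SD array 2 and KT array 3 had the highest and the lowest upper quartile, with SD array 1, at 240, and KT array 2, at 229, between them.

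**Figure D1:**
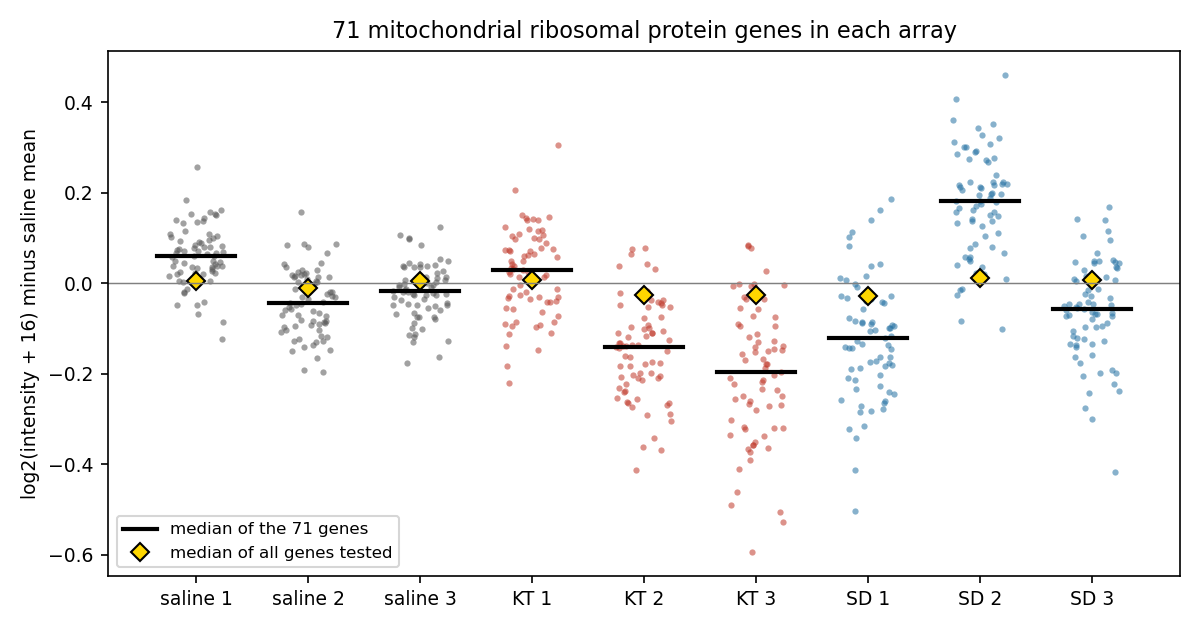
Each point is 1 of the 71 genes in 1 array, as log2(intensity + 16) minus that gene's mean over the 3 saline arrays. Black bars are medians over the 71 genes and diamonds medians over all 22180 genes; the bars run from -0.20 in KT array 3 to 0.18 in SD array 2, while the diamonds stay between -0.027 and 0.012.

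Quantile normalization, which gives every array the same distribution, narrowed these shifts. The 71-gene median was then 0.053, -0.035 and -0.016 in saline, 0.022, -0.086 and -0.090 in KT and -0.088, 0.077 and -0.0088 in SD arrays 1 to 3. The order of the arrays within each group was kept. The part of the array distributions in the differences below was not tested beyond this. Within groups the median SD of a member on the log2 scale was 0.085 in saline, 0.13 in KT and 0.17 in SD arrays, beside 0.086, 0.11 and 0.15 over all genes.

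**Figure D2:**
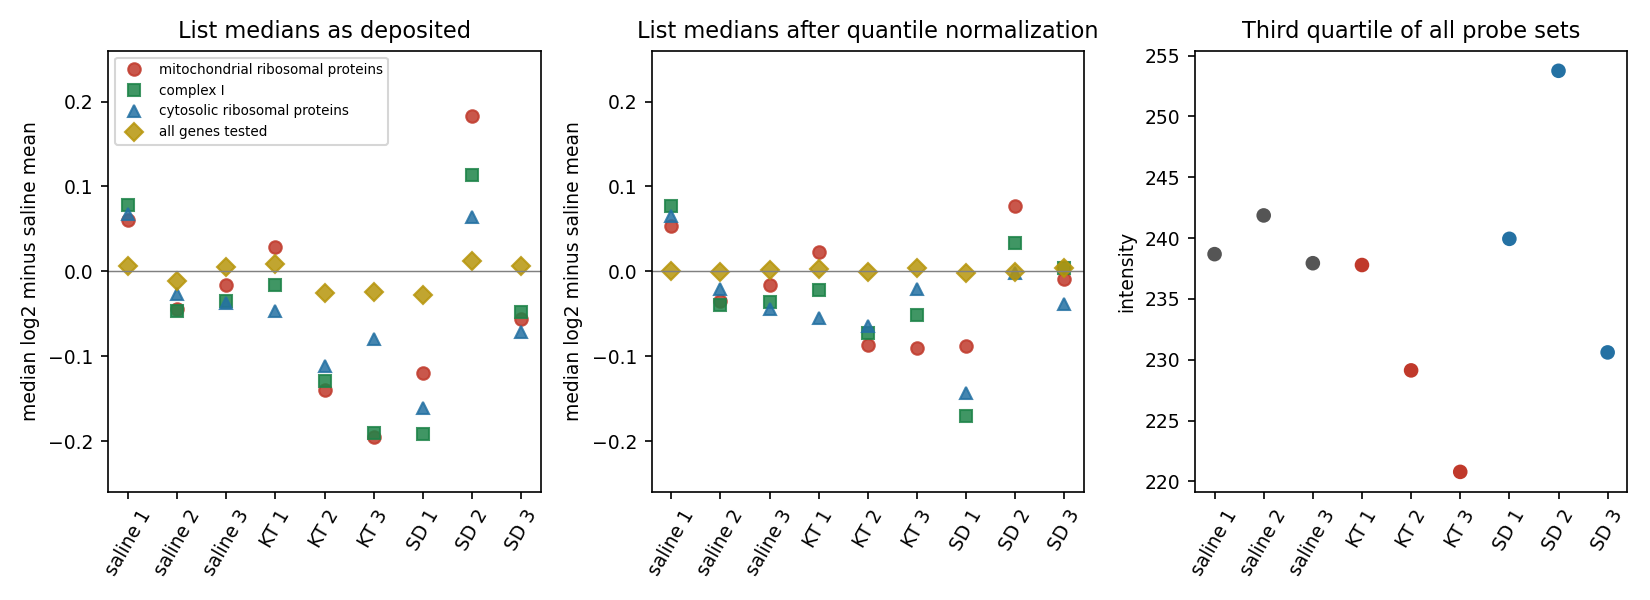
Left and middle: median of log2(intensity + 16) minus the saline mean in each array, for 71 mitochondrial ribosomal protein, 42 complex I and 65 cytosolic ribosomal protein genes and for all genes, as deposited and after quantile normalization. The complex I and cytosolic ribosomal sets were taken by gene symbol. Right: upper quartile of all probe sets per array, on an axis that does not start at 0; SD array 2 stands highest at 254 and KT array 3 lowest at 221.

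The comparison of KT with saline addresses what 1 injection of ketamine leaves in the RNA of this cortex 8 h later. Of the 71 genes 68 had a lower mean after ketamine, beside 54.6% of all genes tested, and the median difference was -0.10, beside -0.015 over all genes. The members were brighter than most genes, with a median intensity of 238 beside 129, and with the dimmest genes removed the medians were -0.11 and -0.041. After quantile normalization 51 of 71 were lower and the median was -0.065, and in every setting that could move it the median stayed below 0. The differences were small against their error: they ran from -0.32 to 0.060 with a median SE of 0.11, and their SD across genes, 0.082, was below that SE. By limma with Benjamini-Hochberg adjustment 0 of 71 passed, beside 0% of all genes. At an unadjusted p under 0.05 there were 3, or 4.23%, beside 4.57% of all genes. All 3 were lower, beside 2.35% of all genes, and 0 were higher, beside 2.21%. The count was 6 with an offset of 64, median centring, limma-trend or the dimmest genes removed, 8 in a fit of the 6 arrays alone and 31 with array weights, and it ran from 0 to 14 when 1 array was left out, the 14 without KT array 1. Groups did not overlap for 8 members, all lower (11.3%, beside 7.89% of all genes lower without overlap), and for 0 that were higher, beside 6.48%, or 14.4% of all genes in both directions.

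Lower means were found in both subunits and both origins. Large-subunit genes with a bacterial homologue were lower in 27 of 28 (median -0.084), and those specific to mitochondria in 16 of 17 (median -0.11). Small-subunit genes were lower in 14 of 15 with a bacterial homologue (median -0.12) and in 10 of 10 specific to mitochondria (median -0.084). The 3 members at an unadjusted p under 0.05 were large-subunit genes, 6.67% of the 45, beside 4.57% of all genes. Of the 25 small-subunit genes 0 were under that line, but Mrps21, at a difference of -0.25, missed it narrowly. A difference between the subunits was not tested. Without KT array 3 the 71-gene median was -0.058 with 60 lower, without saline array 1 it was -0.063 with 61 lower, and without KT array 1 it was -0.17 with 67 lower.

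Mrpl42, a mitochondria-specific protein of the large subunit, had the smallest p of the set. Its intensities were 613, 596 and 544 in saline arrays 1 to 3, 499, 520 and 436 in KT arrays and 511, 629 and 528 in SD arrays. All KT arrays lay below all saline arrays, with a difference of -0.26 ± 0.11 (SE, n = 3 per group, limma adjusted p = 0.87). Mrpl52, also specific to mitochondria, read 332, 372 and 344 in saline, 313, 293 and 289 in KT and 326, 364 and 320 in SD arrays. Its KT arrays lay below all saline and all SD arrays, at -0.22 ± 0.09 against saline. Mrpl15, which has a bacterial homologue, read 213, 206 and 209 in saline, 195, 175 and 144 in KT and 203, 235 and 180 in SD arrays. Its saline arrays were tightly grouped and the KT arrays spread below them, at -0.27 ± 0.12.

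Mrps21, the small-subunit gene that stood lowest, showed a split KT group. It read 210, 212 and 206 in saline arrays, 205, 159 and 159 in KT arrays and 185, 246 and 202 in SD arrays, so KT array 1 nearly reached the saline arrays. The difference was -0.25 ± 0.12. Mrpl20, a large-subunit gene with a bacterial homologue, had the same split, with 124, 128 and 125 in saline, 127, 90.5 and 94.6 in KT and 126, 157 and 130 in SD arrays. Here KT array 1 lay within the saline range, and the difference was -0.25 ± 0.12. Mrpl54, specific to mitochondria, had the largest difference of the set at -0.32 ± 0.15. It read 181, 175 and 164 in saline, 156, 137 and 115 in KT and 163, 245 and 148 in SD arrays, with no overlap of KT and saline.

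**Figure D3:**
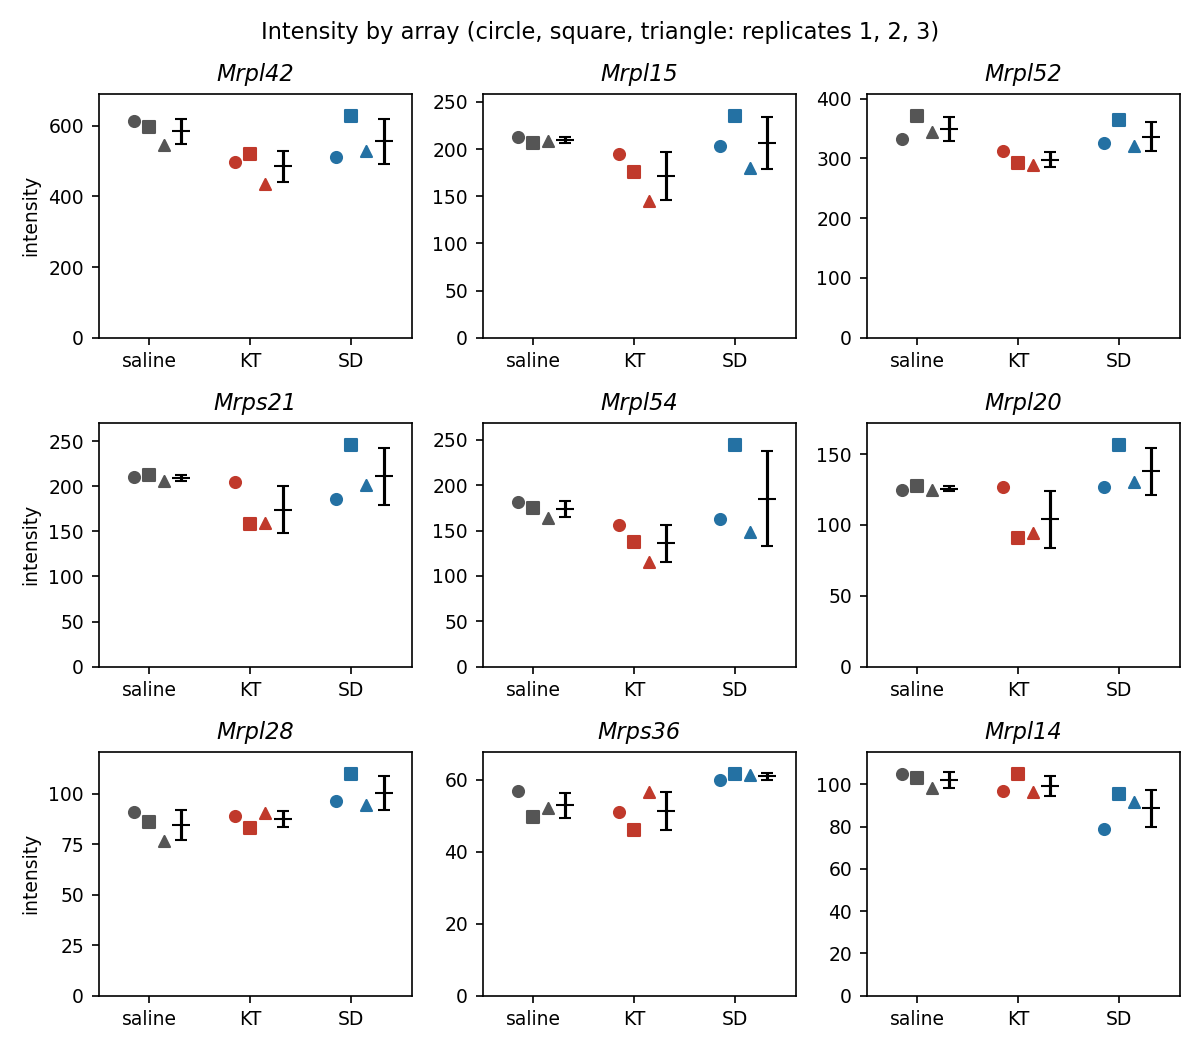
Intensity of 9 genes in each array; circles, squares and triangles are replicates 1, 2 and 3, and black bars give the mean ± SD of a group. For Mrpl42, Mrpl15, Mrpl52, Mrps21 and Mrpl54 every KT array lies below every saline array, for Mrpl20 KT array 1 does not, and for Mrpl28 and Mrps36 every SD array lies above every saline array.

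Mrpl18, which also takes part in carrying 5S rRNA, was at -0.27 ± 0.15 and Mrpl16 at -0.21 ± 0.12. Mrpl23, Mrpl34 and Mrps7, a protein of the small-subunit head, were the other 3 without overlap, at -0.20 ± 0.12, -0.13 ± 0.10 and -0.15 ± 0.10. Mrpl12, the stalk protein that also binds the mitochondrial RNA polymerase, read 240, 192 and 208 in saline, 204, 174 and 172 in KT and 167, 264 and 221 in SD arrays. Its groups overlapped, and its difference was -0.20 ± 0.14. Mrps12 was at -0.16 ± 0.12 and Mrpl58, a peptidyl-tRNA hydrolase that frees stalled ribosomes, at -0.11 ± 0.13. The 3 members with a higher mean were Mrpl38 at 0.060 ± 0.10, Mrps28 at 0.046 ± 0.10 and Mrpl28 at 0.045 ± 0.10, all smaller than their errors.

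**Figure D4:**
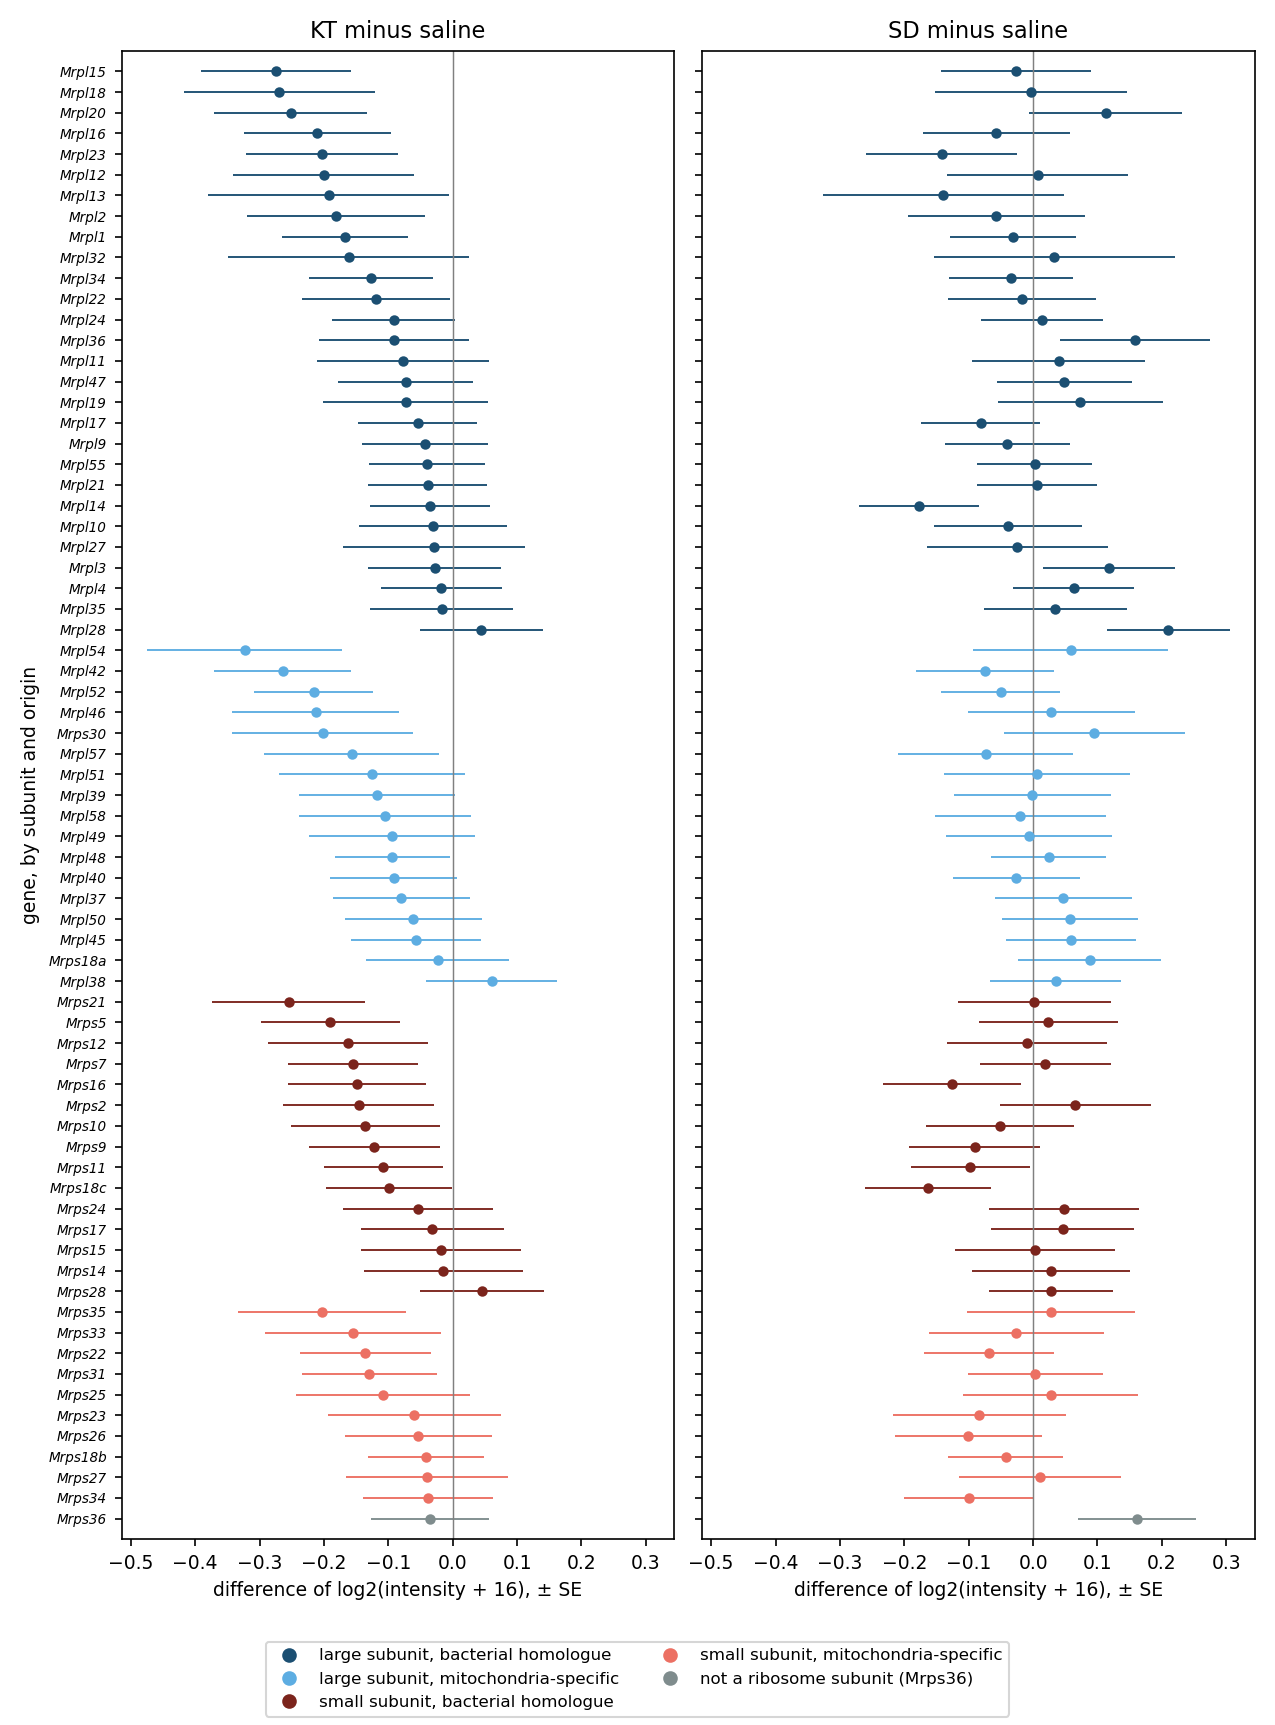
Difference from saline in log2(intensity + 16) for each of the 71 genes, with bars of 1 SE from the limma fit, for KT (left) and SD (right), in the same gene order. In the left panel 68 points lie below 0, and in the right panel 33 lie below and 38 above; both panels use the same 3 saline arrays.

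The comparison of SD with saline asks what 12 h without sleep, ending 1 h before collection, did to the same genes. Means lay on both sides of saline: 33 had a lower and 38 a higher mean (46.5% lower, beside 53.4% of all genes), and the median difference was 0.0029, beside -0.0088 over all genes. limma with adjustment called 0 of 71, beside 0% of all genes, and 1 member (1.41%) had an unadjusted p under 0.05, beside 3.52%. It was higher, beside 1.80% of all genes, and 0 were lower, beside 1.72%. Groups did not overlap for 3 members (4.23%, beside 7.11%), 1 lower (beside 3.54%) and 2 higher (beside 3.57%). The balance depended on single arrays: without SD array 2 the median was -0.096 with 63 of 71 lower, without SD array 1 it was 0.070 with 18 lower, and without saline array 1 it was 0.042 with 24 lower. The large-subunit genes were lower in 21 of 45 and the small-subunit genes in 12 of 25.

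Mrpl28, a large-subunit gene with a bacterial homologue, was the 1 member past the unadjusted line. It read 91.1, 86.1 and 76.4 in saline, 96.3, 110 and 94.7 in SD and 89.1, 83.2 and 90.4 in KT arrays. All SD arrays lay above all saline and all KT arrays, with a difference from saline of 0.21 ± 0.10 (SE, n = 3 per group, limma adjusted p = 1.00). Mrps36, the dehydrogenase component that carries a ribosomal name, also had its SD arrays above all others. Its dim signal was 56.7, 49.7 and 52.2 in saline, 59.9, 61.7 and 61.4 in SD and 51.2, 46.0 and 56.7 in KT arrays, and its difference was 0.16 ± 0.09. Mrpl14, a large-subunit gene with a bacterial homologue, stood the other way, at 105, 103 and 98.0 in saline, 78.9, 95.3 and 91.6 in SD and 96.9, 105 and 96.1 in KT arrays. Its SD arrays lay below all others, at -0.18 ± 0.09, so for these 3 genes all SD arrays stood on 1 side of saline.

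Below saline the next members by p in the SD group were Mrps18c at -0.16 ± 0.10, Mrpl23 at -0.14 ± 0.12, Mrps16 at -0.13 ± 0.11, and Mrps11, Mrps34, Mrps9 and Mrps26 between -0.10 and -0.091. Above saline, again by p, they were Mrpl36 at 0.16 ± 0.12, Mrpl3, which lies near the peptidyl transferase centre, at 0.12 ± 0.10, Mrpl20 at 0.11 ± 0.12, Mrps18a at 0.088 ± 0.11, Mrps30 at 0.095 ± 0.14 and Mrpl4 at 0.063 ± 0.09.

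The direct comparison of KT with SD asks where the treatments differ from each other, and it shares its arrays with both comparisons above. Of the 71 genes 61 were lower in KT, beside 53.0% of all genes, with a median of -0.11, beside -0.012. limma called 0 of 71, beside 0%, and 3 (4.23%) had an unadjusted p under 0.05, beside 9.48% of all genes. All 3 were lower in KT, beside 4.38%, and 0 were higher, beside 5.10%. That count was 6 to 8 with an offset of 64, quantile normalization, median centring, limma-trend, the dimmest genes removed or array weights, and ran from 1 (without SD array 2 or KT array 2) to 12 (without KT array 1). Groups did not overlap for 5 members (7.04%, beside 10.1%), namely Mrpl28, Mrpl52, Mrps36 and Mrps7, lower in KT (beside 5.54%), and Mrpl14, higher in KT (beside 4.53%). After quantile normalization 53 of 71 were lower and the median was -0.044. Without SD array 2 the median was -0.035 with 43 lower, and without KT array 3 it was -0.044 with 55 lower. With both arrays left out, a setting chosen after seeing the data, it was 0.031 with 28 lower. These were the highest SD and the lowest KT array for this set, so leaving them out was bound to raise the median. The setting therefore shows only how far the median depends on these 2 arrays.

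Mrpl20 had the smallest p here, at -0.36 ± 0.12 (SE, n = 3 per group, limma adjusted p = 0.43), yet KT array 1, at 127, exceeded SD array 1, at 126. Mrpl54 was at -0.38 ± 0.15 and Mrps21 at -0.26 ± 0.12, both with overlapping groups. Mrps36 was at -0.20 ± 0.09, Mrpl36 at -0.25 ± 0.12, Mrpl15 at -0.25 ± 0.12, Mrps30 at -0.30 ± 0.14 and Mrps5, a small-subunit protein with a bacterial homologue, at -0.21 ± 0.11. Higher in KT were Mrpl14 at 0.14 ± 0.09, Mrps18c at 0.063 ± 0.10, Mrps34 at 0.061 ± 0.10, Mrps26 at 0.048 ± 0.11 and Mrpl17 at 0.027 ± 0.09, with Mrpl38, Mrps28 and Mrps23 at 0.025 or less.

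The 3 paralogs Mrps18a, Mrps18b and Mrps18c take different places in the ribosome. All 3 had a lower mean in KT than in saline, at -0.023 ± 0.11, -0.041 ± 0.09 and -0.10 ± 0.10, each within or close to its SE. In SD against saline they were at 0.088 ± 0.11, -0.043 ± 0.09 and -0.16 ± 0.10. Mrps18a read 293, 294 and 254 in saline, 262, 296 and 269 in KT and 321, 327 and 254 in SD arrays, with overlap of all groups. Mrps18b read 309, 312 and 285 in saline, 293, 292 and 295 in KT and 273, 315 and 292 in SD arrays. Mrps18c read 144, 131 and 132 in saline, 132, 115 and 130 in KT and 109, 133 and 117 in SD arrays. For Mrps18c the second, dimmer probe set gave 0.17 ± 0.10 between SD and saline where the first gave -0.16 ± 0.10, so its direction depended on the probe set.

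Among the 9 genes with a pair of probe sets the signs differed for 4 in KT against saline (Mrpl10, Mrpl12, Mrpl36 and Mrps16), for 3 in SD against saline (Mrps16, Mrps18c and Mrps5) and for 4 in KT against SD (Mrpl12, Mrpl36, Mrps18b and Mrps18c). For Mrpl12 the second probe set was at 0.086 ± 0.10 in KT against saline. For Mrps17 the brighter probe set was at -0.032 ± 0.11 and the dimmer one at -0.27 ± 0.11.

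Head-to-head neighbours were set side by side. Mrps11 and Mrpl46, with starts 42 bases apart, were at -0.11 ± 0.09 and -0.21 ± 0.13 in KT against saline, and at -0.098 ± 0.09 and 0.029 ± 0.13 in SD against saline. Mrpl46 read 140, 136 and 128 in saline, 136, 109 and 99.1 in KT and 117, 168 and 132 in SD arrays. Mrps11 read 366, 377 and 324 in saline, 327, 311 and 348 in KT and 325, 330 and 337 in SD arrays, so the high value of SD array 2 in Mrpl46 had no counterpart in Mrps11. Mrps12 was at -0.16 ± 0.12 in KT against saline where its partner Sars2 was at 0.080 ± 0.09. The 21 pairs whose partner is no member had partner medians of -0.084 in KT (14 of 21 lower) and -0.030 in SD against saline (12 of 21 lower). Their members stood at -0.092 in KT (21 of 21 lower) and -0.0033 in SD.

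The other lists of the mitochondrial translation pathway had medians below saline after ketamine, with members on both sides and no gene past the adjusted threshold. Translation factors were lower in 13 of 14 measured (median -0.12), with 0 at an unadjusted p under 0.05 in either direction, and the elongation factor gene Gfm1 was at -0.17 ± 0.10, while the membrane insertase gene Oxa1l was at 0.023 ± 0.10. Assembly factors of the ribosome were lower in 19 of 27 (median -0.055, 0 in either direction at that p), with the GTPase gene Gtpbp10 at -0.16 ± 0.10 and the pseudouridine synthase gene Rpusd3 at 0.16 ± 0.09. Mitochondrial tRNA synthetases and partners were lower in 14 of 19 (median -0.029), with 2 lower and 0 higher at that p. The 2 were 10.5% of the list, beside 2.35% of all genes lower and 2.21% higher. Hars2, the histidyl-tRNA synthetase, read 165, 160 and 168 in saline, 151, 139 and 117 in KT and 170, 186 and 162 in SD arrays. Its KT arrays lay below all others, at -0.26 ± 0.10 against saline (limma adjusted p = 0.87). Yars2, the tyrosyl-tRNA synthetase, was at -0.29 ± 0.12 and Wars2, the tryptophanyl-tRNA synthetase, at 0.11 ± 0.09.

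Genes of mitochondrial DNA transcription and replication were lower in 14 of 17 (median -0.11, 0 at that p). Tfam, which packages the mitochondrial genome and starts its transcription, was at -0.13 ± 0.13 and the RNA polymerase gene Polrmt at -0.033 ± 0.09. Mterf2, of the family of mitochondrial termination factors, was at -0.23 ± 0.13 and the polymerase subunit gene Polg2 at 0.11 ± 0.10. Among 13 regulators of mitochondrial biogenesis 9 were lower (median -0.071, 0 at that p). Gabpa, the ETS factor whose core motif was counted above, read 215, 217 and 209 in saline, 206, 178 and 150 in KT and 200, 263 and 214 in SD arrays. Its KT arrays lay below its saline arrays, at -0.26 ± 0.12. Gabpa was lowest in KT array 3, as were 24.7% of all genes, and highest in SD array 2, as were 26.2%. Its part in the values of the ribosomal genes was not tested. Nrf1 was at -0.080 ± 0.09 and the coactivator gene Ppargc1a at -0.10 ± 0.12, while the nuclear receptor gene Esrra was at 0.11 ± 0.09.

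In SD against saline these lists had medians between -0.0069 and 0.044. All 5 lists had 0 genes at an unadjusted p under 0.05, beside 3.52% of all genes. The 5 were translation factors, assembly factors, tRNA synthetases, mitochondrial DNA genes and regulators. The lowest by p were Guf1 at -0.098 ± 0.11, Mpv17l2 at -0.11 ± 0.11, Rars2 at -0.17 ± 0.11, Tefm at -0.096 ± 0.09 and Esrrg at -0.17 ± 0.10. The highest by p were Tufm at 0.13 ± 0.13, Rpusd3 at 0.12 ± 0.09, Ears2 at 0.11 ± 0.11, Ssbp1 at 0.098 ± 0.11 and Pprc1 at 0.13 ± 0.10. The exception among pathway genes was Ptcd3, a pentatricopeptide protein of the small subunit outside the Mrps names. It read 395, 457 and 236 in saline, 618, 698 and 562 in SD and 527, 248 and 212 in KT arrays. All SD arrays lay above all others, at 0.80 ± 0.27 against saline (limma adjusted p = 1.00), and saline and KT arrays were widely spread. Dap3, the GTP-binding protein of the small subunit, was at -0.032 ± 0.09 in SD and -0.081 ± 0.09 in KT against saline.

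In KT against SD the 5 lists had medians between -0.16 and -0.039. At an unadjusted p under 0.05 there were 0 assembly factors, 1 translation factor, the release factor gene Mtrf1l at -0.28 ± 0.13, 2 tRNA synthetases, Hars2 at -0.32 ± 0.10 and Yars2 at -0.31 ± 0.12, 0 genes of mitochondrial DNA transcription and replication and 1 regulator, Gabpa at -0.32 ± 0.12. All of these were lower in KT, where 4.38% of all genes were lower and 5.10% higher at that p. They were 7.14% of translation factors, 10.5% of tRNA synthetases and 7.69% of regulators. Ptcd3 was at -0.999 ± 0.27 (limma adjusted p = 0.37), with KT arrays below all SD arrays. The lowest by p in the other lists were Fastkd2 at -0.27 ± 0.13 and Twnk, the mitochondrial helicase, at -0.19 ± 0.10. The highest were Mpv17l2 at 0.20 ± 0.11, Taco1 at 0.048 ± 0.12, Wars2 at 0.070 ± 0.09, Polg2 at 0.17 ± 0.10 and Esrrg at 0.12 ± 0.10.

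The most like gene sets were complex I of the respiratory chain and the cytosolic ribosome, and the difference between sets was not tested. Both were taken by symbol alone, as names beginning with Nduf and as names beginning with Rpl or Rps and a digit. They therefore also hold genes that do not encode subunits, such as the assembly factor gene Ndufaf1 and Rps19bp1, and leave out Fau. In KT against saline 41 of 42 complex I genes were lower (median -0.12), with 4 lower and 0 higher at an unadjusted p under 0.05 (9.52% in all, beside 4.57% of all genes). Of 65 cytosolic ribosomal protein genes 48 were lower (median -0.067), with 8 lower and 1 higher (13.8%), beside 2.35% lower and 2.21% higher of all genes. KT and saline did not overlap for 9 complex I genes, all lower (21.4%, beside 7.89% of all genes). The same held for 17 cytosolic ribosomal genes that were lower (26.2%) and 1 that was higher (1.54%, beside 6.48%). In SD against saline the medians were -0.041 and -0.062. Complex I genes stood at 0.11 in SD array 2 and -0.19 in SD array 1, and cytosolic ribosomal genes at 0.064 and -0.16, so the array order within the SD group was that of the mitochondrial ribosomal genes. In KT arrays 1 to 3 complex I genes stood at -0.016, -0.13 and -0.19, again in that order. Cytosolic ribosomal genes stood at -0.047, -0.11 and -0.080, so their lowest was KT array 2. Astrocyte markers, 8 of 8 measured, were also lower in KT (median -0.079), with summed intensities of 9493 to 10447 in saline, 9127 to 10331 in KT and 9136 to 10760 in SD arrays. Oligodendrocyte markers, 12 of 13 measured, summed to 6202 to 7420 in saline, 5453 to 9246 in KT and 5547 to 6885 in SD arrays, and were highest in KT array 2. Their median difference was 0.041 in KT against saline (8 of 12 higher) and -0.11 in SD against saline (11 of 12 lower). In KT against SD it was 0.21 (9 of 12 higher).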

How the data were processed

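Cortical RNA from 9 samples was measured on Affymetrix arrays, 3 per group. The deposited table holds linear intensity values of 41345 probe sets, which the authors made with Affymetrix Expression Console 1.1.1 and PLIER 2.0, per the submitters' processing notes. How background and array differences were treated is not stated in the labels or header. Probe sets were named by the GEO platform table and symbols checked through gene identifiers against RefSeq (23328 of 23521 probe sets with 1 gene matched). Deposited intensities were turned into log2(intensity + 16), which damps the change of dim genes. limma 3.58.1 in R 4.3.3 fitted all 9 arrays and 22180 genes at once (6 residual degrees of freedom, Benjamini-Hochberg adjustment at 0.05), and was tested on simulated data. The number of arrays limits the precision. Numbers in the sample descriptions run by group, so array order and group cannot be told apart.

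The members, lists and tests were chosen with earlier results of these data known. Members named in a comparison were those past the adjusted threshold and the 8 smallest unadjusted p in each direction, with the Mrps18 paralogs, Mrpl12, Mrps12, Mrps36 and members whose probe sets disagree. Members without overlap between groups, Mrpl58, Mrpl46 and Mrps17 were added after their values were seen. Yars2 was also added. Mrpl58, first placed in a list of proteins with other names, was counted as a member by its platform symbol. Replicate numbers were not taken to pair arrays: deviations of same-numbered arrays correlated at -0.20 to 0.44, with 2 of 9 pairs over 0.1.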

Additional observations from a re-analysis of the deposited data

How the results depend on the processing

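The sign of the 71-gene median in KT against saline was negative in all 20 other settings, with values between -0.17 and -0.058. Several of these settings keep each gene's difference and could not move it. They are limma-trend, the replicate number as a block, the 6 arrays alone and leaving out an SD array. Leaving out SD array 2 and KT array 3 together repeats the value without KT array 3. No member passed the adjusted threshold in any comparison except with array weights, where KT array 2 took a weight of 7.92 and 6 members passed in KT against saline. The counts at an unadjusted p under 0.05 moved by more than 1.5 times. In KT against saline (3) the count was 6 with an offset of 64, median centring, limma-trend or the dimmest genes removed, 5 after quantile normalization, 8 in a fit of the 6 arrays alone and 31 with array weights. In SD against saline (1) it was 0 with an offset of 64, median centring, limma-trend or the 6 arrays alone, and 2 after quantile normalization or with array weights. In KT against SD (3) it was 7 with an offset of 64 or quantile normalization, 6 with median centring, limma-trend or the dimmest genes removed, and 8 with array weights. Leaving out 1 array at a time gave 0 to 14, 0 to 4 and 1 to 12, and medians of -0.17 to -0.058, -0.096 to 0.070 and -0.18 to -0.035. With SD array 2 and KT array 3 both left out, a setting chosen after seeing the data, the counts were 1, 5 and 1, and the median in KT against SD was 0.031. With the replicate number as a block the counts were 4, 0 and 3, and no adjusted call changed; the numbers were not taken as a pairing. Removing the dimmest genes left 67 members, and the median of all remaining genes in KT against saline was then -0.041. The cause of these changes was not tested.

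Signs turned for single members, most of them near 0. Mrps18c and Mrps30 lay further from 0 in SD against saline, at -0.16 and 0.095 as reported above. Mrps18c was at 0.0024 in SD against saline and -0.090 in KT against SD with probe sets averaged. In KT against SD Mrps28 was at -0.015 after quantile normalization and Mrps34 at -0.044 with array weights. Leaving out 1 array at a time gave -0.015 to 0.091 for Mrpl28 in KT against saline and -0.061 to 0.21 for Mrps30 in SD against saline, which was also at -0.061 with both arrays left out. In KT against SD it gave -0.0097 to 0.13 for Mrps34, -0.034 to 0.17 for Mrps26, -0.018 to 0.095 for Mrpl17, -0.051 to 0.11 for Mrpl38, -0.033 to 0.11 for Mrps28 and -0.14 to 0.14 for Mrps23.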
